A study of Mus musculus with 2 samples.

Results

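Peroxiredoxins, thioredoxin with its reductase, and the superoxide dismutases were examined as 10 mouse genes: Prdx1 to Prdx6, Txn1, Txnrd1, Sod1 and Sod2. They were selected by gene symbol in the array annotation, with no use of their values. Of the 10 genes, 8 had a probe under their own symbol, 1 probe each, and all 8 probes had a value on both arrays. Prdx5 and Prdx6 had no probe under their symbols and are not analysed here. The 8 genes stand among 13735 genes measured on both arrays.

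The samples were extracellular vesicles shed into medium by cultured mouse cytotoxic T lymphocytes, T cells whose task is to kill infected or tumour cells. The medium was collected after 7 days of culture, concentrated through a 750 kDa ultrafilter and loaded on a DEAE column, a positively charged resin that holds particles of negative surface charge. One fraction left the column at 0.5 M NaCl and the other at 0.3 M NaCl, and total RNA of each was amplified, labelled with Cy5 and put on 1 array. The fractions share cells, culture and ultrafiltration as far as the labels say. Mouse strain, stimulus and number of preparations are not stated there. With 1 array for each fraction there was no replicate and no test, and every difference describes this pair of arrays.

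Superoxide, a by-product of respiration and of NADPH oxidase, is turned into hydrogen peroxide by superoxide dismutases, and peroxiredoxins reduce that peroxide to water through a reactive cysteine. Most peroxiredoxins are restored by thioredoxin, which is in turn reduced by thioredoxin reductase, a selenoprotein, with electrons from NADPH. In T cells the pathway limits oxidative damage during activation and tunes signalling by peroxide, and peroxiredoxins and thioredoxin are also known from proteins released by cells.

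Values are deposited probe intensities on a linear scale and, for differences, log2 intensity at 0.5 M minus 0.3 M after each array's median over shared probes was subtracted. That centring removed a shift of -0.30. Genes dimmer than the median gene on both arrays were left out, so that 7446 genes were kept, with all 8 that had a probe among them. The median difference of kept genes was 0.08, with quartiles of -0.29 and 0.47, and it was -0.22 with the values as deposited. Bright genes lay higher than dim ones at 0.5 M: the median was 0.46 in the brightest 10% of kept genes and -0.04 in the dimmest 10%. Of the markers of cytotoxic T cells, Cd8a (2463 at 0.5 M and 3677 at 0.3 M) and Gzmb (2838 and 2493) were bright, whereas Cd3e was dim at 14 and 12. These markers had a median difference of 0.52 over 9 kept genes, with 6 above 0, against 55.9% of all kept genes. Among the 6 were Ccl5 (1.66), Cd3g (0.93) and Cd8b1 (0.87). The 3 below 0 were Tbx21 (25174 at 0.5 M and 39433 at 0.3 M, -0.35), Cd8a (-0.28) and Prf1 (26 and 33, -0.04). Cd8a had 2 probes, of which 1 was empty on both arrays. The marker intensities summed to 33372 at 0.5 M and 47598 at 0.3 M over 10 probes, mostly through Tbx21. A bulk measurement of vesicle RNA cannot tell fewer vesicles that carry a transcript from less of it per vesicle.

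After centring, Sod1, Prdx2, Txn1 and Sod2 had higher intensities in the 0.5 M fraction, between 1.49-fold and 1.98-fold. Prdx4 was 1.34-fold lower there. Prdx1, Txnrd1 and Prdx3 lay closest to 0 and had no stable sign across scalings. None of the 8 reached 2-fold in either direction, against 7.59% of all kept genes, 5.24% higher and 2.35% lower. The median of the 8 differences was 0.48, near the 0.52 of the cytotoxic T cell markers, and 7 of the 8 lay above 0, as did 55.9% of all kept genes. Above 0 were 5 of the 8 as deposited (34.4% of all kept genes) and 5 with loess (49.9%). The 2-fold count of the 8 was 0 in the other settings too, against 9.4% of all kept genes as deposited, 7.13% with quantile normalization, 7.09% with loess and 3.42% with a pseudocount of 16.

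**Figure D1:**
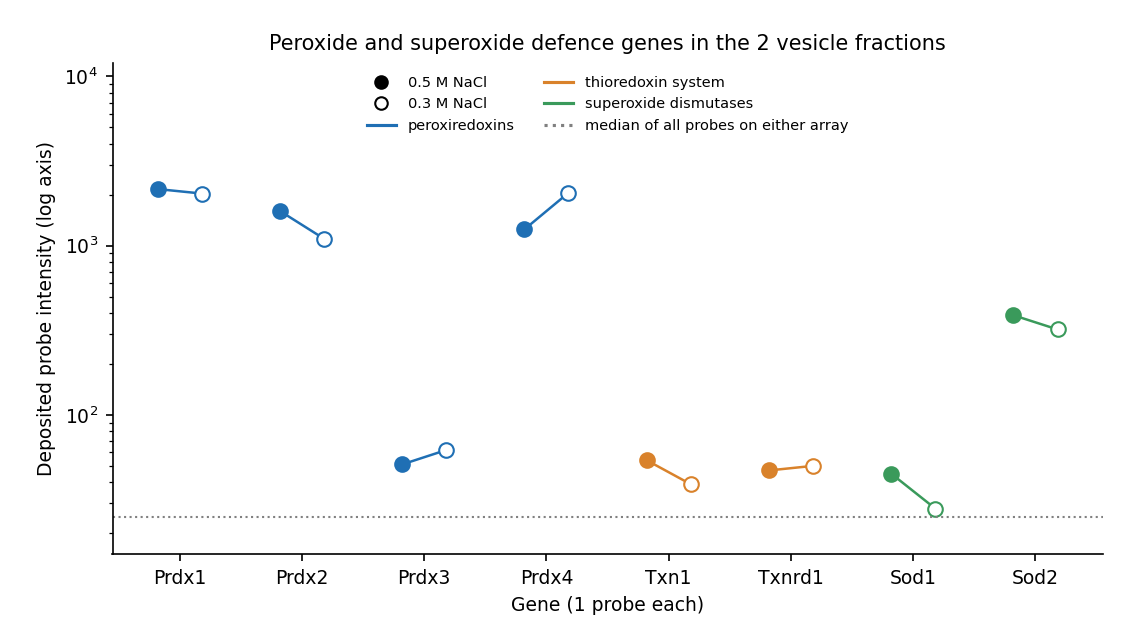
Deposited probe intensity (log axis) of the 8 genes with a probe, 1 probe each, at 0.5 M NaCl (filled points) and 0.3 M NaCl (open points); the dotted line is the median of all probes, 25 on both arrays. Prdx4 is lower at 0.5 M (1247 against 2051), while Prdx2, Txn1, Sod1 and Sod2 are higher at 0.5 M.

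Of the 4 peroxiredoxins with a probe, Prdx1, Prdx2 and Prdx4 were over 1000 on both arrays and Prdx3 was under 70. Prdx1, a cytosolic and nuclear enzyme of the 2-cysteine type, had an intensity of 2160 at 0.5 M and 2033 at 0.3 M. Its difference was 0.39 after centring, a 1.31-fold higher value at 0.5 M. The deposited values of Prdx1 were nearly level between the fractions (ratio 1.06), so its difference comes mostly from the centring, and it was -0.10 with a loess trend on intensity removed.

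Prdx2, the other main cytosolic 2-cysteine enzyme and an abundant protein of red cells, had 1605 at 0.5 M and 1101 at 0.3 M. It was higher at 0.5 M by 0.84, or 1.79-fold, a larger difference than that of 90.9% of kept genes. Prdx2 stayed above 0 in each scaling tried, with 0.54 as deposited, 0.47 with quantile normalization and 0.42 with loess. Of the 8 red cell markers with a probe, the 4 globin genes lay below 0 after centring and the other 4 above 0. The marker intensities summed to 8082 at 0.5 M and 17404 at 0.3 M over the 8 of 12 markers with a probe. Most of that sum came from the globin genes, led by Hba-a2 (5681 and 12001). Alas2, an enzyme of haem synthesis, was dim at 28 and 28, as was the membrane skeleton protein Epb42 at 36 and 39. Slc4a1 and Rhag, membrane proteins of red cells, were near the lowest intensities of either array, at 7 and 7 in the 0.5 M fraction and at 8 and 6 in the 0.3 M fraction. The part of red cell RNA in the level of Prdx2 was not tested.

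Prdx4, the peroxiredoxin of the endoplasmic reticulum, which carries a signal peptide and can be secreted, had the lowest difference of the 8 genes. It had 1247 at 0.5 M and 2051 at 0.3 M. The difference was -0.42 after centring, and Prdx4 was the only 1 of the 8 genes below 0 in that scaling. It stayed below 0 as deposited (-0.72), with quantile normalization (-0.76) and with loess (-0.87). The gap between Prdx2 and Prdx4 was 1.26 on the log2 scale, which corresponds to 2.40-fold. A common shift between arrays cannot alter this gap, and it was 1.24 with quantile normalization and 1.29 with loess.

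Prdx3, the peroxiredoxin of the mitochondrial matrix, was dim. It had 51 at 0.5 M and 62 at 0.3 M, and its difference was 0.02 after centring. The sign turned with the scaling, to -0.28 as deposited, -0.03 with quantile normalization and -0.01 with loess. Prdx3 thus had no difference that could be told from the choice of scaling.

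Prdx6 itself had no probe. The array carried a probe annotated to Prdx6-ps2, a pseudogene whose name marks it as derived from Prdx6, with 67 at 0.5 M and 100 at 0.3 M (difference -0.28). Whether that probe also binds Prdx6 transcripts was not tested, and it is not counted among the 8.

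In the thioredoxin system, Txn1, the cytosolic thioredoxin that restores 2-cysteine peroxiredoxins, had 54 at 0.5 M and 39 at 0.3 M. Its difference was 0.77, or 1.70-fold higher at 0.5 M, and it stayed between 0.47 and 0.77 across the 4 scalings. Txnrd1, the cytosolic reductase that recycles thioredoxin, had 47 at 0.5 M and 50 at 0.3 M. Its difference was 0.21 after centring and -0.09 as deposited. The enzyme and its substrate thus differed by 0.56 between the fractions, with both probes dim, and a pseudocount of 16 brought Txn1 to 0.54.

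Of the superoxide dismutases, Sod1, the copper and zinc enzyme of the cytosol, had 45 at 0.5 M and 28 at 0.3 M. Its difference of 0.98 (1.98-fold) was the largest of the 8 genes and just under 2-fold. It was 0.68 as deposited, 0.96 with quantile normalization, 0.98 with loess and 0.66 with the pseudocount of 16. At 0.3 M the Sod1 probe was near the array's median of 25, so few intensity units carry this ratio. Sod2, the manganese enzyme of the mitochondrial matrix, was brighter, with 388 at 0.5 M and 320 at 0.3 M. Its difference was 0.58 (1.49-fold), and it stayed above 0 as deposited (0.28), with quantile normalization (0.38) and with loess (0.36). Sod2 lay 0.56 above Prdx3, the other mitochondrial matrix enzyme, and the gap was 0.37 with loess.

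**Figure D2:**
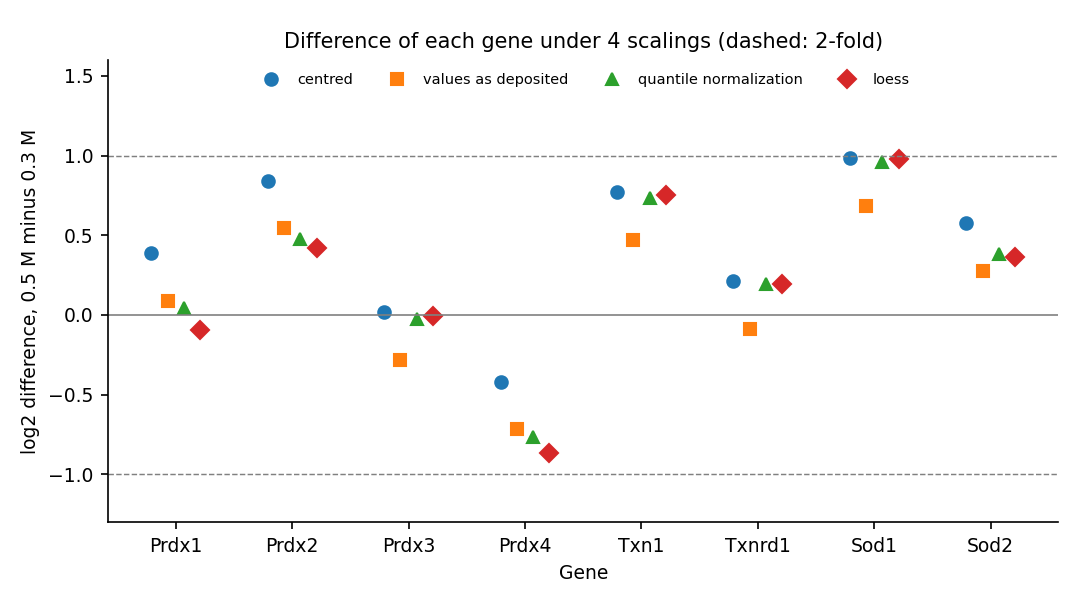
Log2 difference, 0.5 M minus 0.3 M, of each gene under 4 scalings of the 2 arrays (centred on the median, values as deposited, quantile normalization, loess); dashed lines mark 2-fold. Prdx2, Txn1, Sod1 and Sod2 stay above 0 and Prdx4 stays below 0 in all 4, and Prdx1, Prdx3 and Txnrd1 cross 0.

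Since bright probes were shifted upward at 0.5 M, each gene was also set beside kept genes of similar brightness. Prdx1, Prdx2 and Prdx4 belonged to the brightest 10%, 745 genes with quartiles of -0.12 and 0.85. Prdx4 lay below the lower quartile of that band, with 132 of the 745 genes lower. Prdx2, at 0.84, lay just inside the upper quartile, and Prdx1, at 0.39, lay 0.08 under the median. Sod2 was also inside the quartiles of its own 10% band, -0.21 and 0.61. The dim genes Sod1 and Txn1 lay above the upper quartiles of theirs. Of the 748 genes in the band that holds Sod1, 733 had a lower difference, and for Txn1 the count was 707 of 745. Sod1 passed the filter only through the 0.5 M array, where it is the higher (45, against a median of 26 over shared probes). At 0.3 M it was under that median (28 against 32). The filter thus shapes the dim band that holds Sod1, and its place there is no support for a difference. Txnrd1 (0.21, with 503 of 745 genes lower) and Prdx3 (0.02, with 366 of 744 lower) lay inside their quartiles. These positions are descriptions of the 2 arrays, and probe brightness does not rank the transcripts by abundance.

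**Figure D3:**
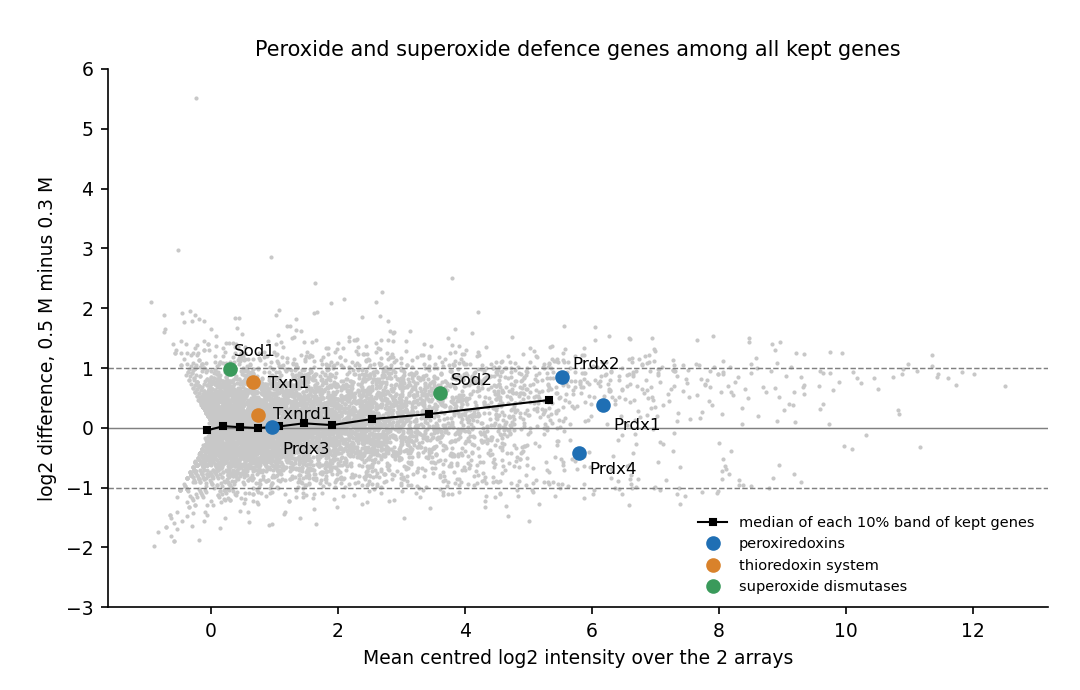
Log2 difference (0.5 M minus 0.3 M) against mean centred log2 intensity for the 7446 kept genes (grey), the median of each 10% band by intensity (black) and the 8 genes (coloured by role); dashed lines mark 2-fold. Sod1 and Txn1 sit near the upper edge among dim genes, and Prdx4 sits below the median of genes of like brightness.

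Each of the 8 genes had 1 probe, so an error could be taken only from how far probes for 1 gene disagreed elsewhere on the arrays. The SD of probes around their gene's mean difference was 0.55 over 358 kept genes and 0.54 over the 49 of them in the brightest 25%. After centring, Sod1, Prdx2, Txn1 and Sod2 had differences larger than that SD, and the other 4 did not. Among all kept genes 32.7% lay beyond it, so single genes at these sizes are common on this pair of arrays. The split of the 8 genes depends on the scaling. As deposited, with quantile normalization and with loess, Prdx4 was beyond 0.55 (-0.72, -0.76 and -0.87). In the same scalings Prdx2 (0.54, 0.47 and 0.42) and Sod2 (0.28, 0.38 and 0.36) were under 0.55, as was Txn1 as deposited (0.47). The gap expected between 2 probes of 1 gene has an SD of 0.78. Of the 28 pairs that the 8 genes form, 7 had a gap beyond 1 such SD and 0 beyond 2 such SDs, and the widest was Sod1 over Prdx4 (1.40). With quantile normalization 8 pairs lay beyond 1 SD and 1 beyond 2 SDs (SD 0.77), and with loess 10 and 2 (SD 0.78). The gap of Sod1 over Prdx4 was the widest there too, at 1.72 and 1.84. The differences of all kept genes had an SD of 0.56, about that between probes of 1 gene. The share of all gene pairs beyond these bounds was not taken, so the pair counts do not set the 8 genes apart. The 28 pairs also reuse the same 8 genes, and Prdx4 is in most of the 7 after centring.

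Genes around the pathway were taken from 6 lists chosen with earlier results of these data known. Other thioredoxin system genes had a median difference of 0.02 over 8 kept genes of 17 listed, with 4 above and 4 below 0. Msrb1, a selenoprotein that repairs oxidized methionine, was the only kept gene of that list past 2-fold after centring, with 434 at 0.5 M and 255 at 0.3 M (1.07), and it was under 2-fold as deposited (0.77), with quantile normalization (0.89) and with loess (0.86). Txnrd3, a reductase related to Txnrd1, lay the other way, with 432 at 0.5 M and 981 at 0.3 M. Its difference was -0.88 after centring and past 2-fold as deposited (-1.18), with quantile normalization (-1.14) and with loess (-1.20). Sesn2, a stress-induced sestrin, had 53437 at 0.5 M and 82407 at 0.3 M (-0.33, and -1.21 with loess). Txndc17 (0.63) and Txnl1 (0.46), proteins with thioredoxin folds, were above 0. Txnl1, dim at 29 and 26, passed the filter only through the 0.5 M array. With no filter the median of this list was -0.11 over 14 genes, with 6 above and 8 below 0. The mitochondrial partners of Prdx3 were dim on both arrays, with Txn2 at 14 in the 0.5 M fraction and 23 in the 0.3 M fraction, and Txnrd2 at 20 and 25.

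Genes of the glutathione system, the parallel route of peroxide removal, had a median of 0.16 over 11 kept genes of 18 listed, with 8 above 0 and none past 2-fold after centring. Gpx4, which reduces lipid peroxides, had 286 at 0.5 M and 192 at 0.3 M (0.87). Glrx2, a mitochondrial glutaredoxin, was at 0.65. Glrx3, a glutaredoxin that handles iron-sulfur clusters, lay lower, with 5725 at 0.5 M and 10939 at 0.3 M (-0.63, but past 2-fold with quantile normalization at -1.08 and with loess at -1.27), and so did Gss, the last enzyme of glutathione synthesis (-0.40). As deposited, 2 of the 11 lay above 0, in place of 8, while the share of all kept genes went from 55.9% to 34.4%.

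Other superoxide and peroxide genes had a median of 0.77 over 9 kept genes of 11 listed, but 0.14 with loess. After centring 8 of the 9 lay above 0, and as deposited 5 (55.9% and 34.4% of all kept genes). The median of 0.77 is the value of Hmox1, dim at 29 and 21, which passed the filter only through the 0.5 M array. With no filter the median was 0.30 over 11 genes. Fth1 and Ftl1, the ferritin chains that store iron, are among the bright genes of this list, and with loess they were at 0.14 and -0.41, in place of 0.86 and 0.30. The metallothioneins Mt1 (4443 at 0.5 M and 2581 at 0.3 M, 1.08) and Mt2 (255 and 159, 0.98) and the peroxide-sensing protein Park7 (1281 and 834, 0.92) were higher at 0.5 M. Mt1 was the only one of this list past 2-fold after centring, and it was at 0.78 as deposited and 0.54 with loess. Cat, the peroxisomal catalase that removes the same peroxide as peroxiredoxins, was lower, with 35 at 0.5 M and 80 at 0.3 M (-0.89, and past 2-fold as deposited at -1.19). Ccs, the chaperone that loads copper into Sod1, was dim at 21 and 25.

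**Figure D4:**
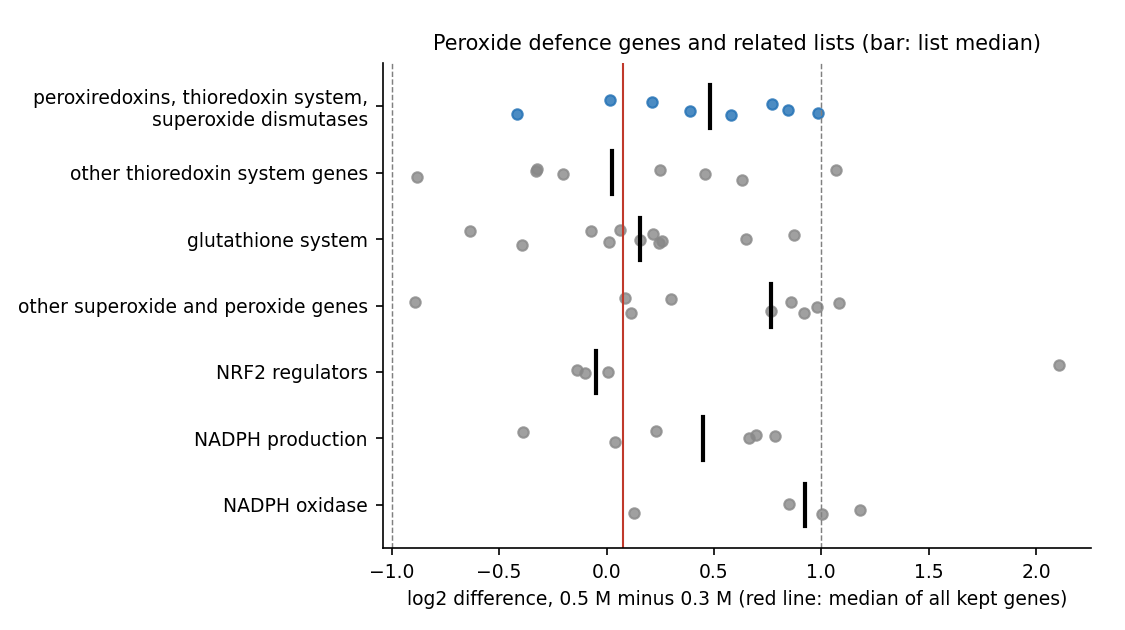
Log2 difference (0.5 M minus 0.3 M, centred) of each kept gene in the 8-gene set and in 6 related lists, 1 point per gene, with black bars for list medians, a red line at the median of all kept genes (0.08) and dashed lines at 2-fold. The 8-gene set has its median at 0.48, and each list but that of NADPH oxidase has members on both sides of 0.

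NADPH production, which feeds thioredoxin reductase, had a median of 0.45 over 6 kept genes of 10 listed, with none past 2-fold. After centring 5 of the 6 lay above 0, and as deposited 3 (55.9% and 34.4% of all kept genes). Idh2, the mitochondrial isocitrate dehydrogenase that makes NADPH, was at 0.78, and the malic enzyme Me2 was at -0.39. Taldo1 (0.70) and Tkt (0.66) are counted among the 6, but these enzymes of the pentose phosphate pathway do not make NADPH themselves. Pgd, which does so in that pathway, had 42 at 0.5 M and 44 at 0.3 M (0.23), and G6pdx had no probe. NADPH oxidase, which makes superoxide, had 4 kept genes of 7 listed, with a median of 0.93. All 4 lay above 0 after centring, and 3 as deposited (55.9% and 34.4% of all kept genes). Ncf4, a cytosolic subunit, had 370 at 0.5 M and 201 at 0.3 M (1.18), the GTPase Rac2 had 1508 and 927, just at the 2-fold bound, the membrane subunit Cyba was at 0.85 and Rac1 was at 0.13. Ncf4 and Rac2 were past 2-fold after centring, and neither was as deposited (0.88 and 0.70). With loess Rac2 was at 0.60. Rac1 was below 0 as deposited (-0.17), with quantile normalization (-0.24) and with loess (-0.29). Cyba, Ncf4 and Rac2 are also expressed by phagocytes and B cells. Markers of macrophages and dendritic cells summed to 1293 at 0.5 M and 640 at 0.3 M over 8 probes of 9 listed genes. The higher sum at 0.5 M came from the MHC class II genes H2-Aa (863 and 188) and H2-Eb1 (200 and 58), which B cells express too. The macrophage receptor Mrc1 lay the other way, with 87 at 0.5 M and 259 at 0.3 M. Csf1r was at 50 and 49, Cd68 at 53 and 50, Lyz2 at 18 and 18, Cd14 at 11 and 8, and Itgax at 11 and 10, and the probe of Adgre1 was empty on both arrays. Markers of B cells summed to 737 and 424 over 6 probes of 8 listed genes, with Cd79b (328 and 94), Cd74 (188 and 43) and Blnk (63 and 26) higher at 0.5 M and Cd22 (126 and 225) lower. Cd79a was dim, at 11 in the 0.5 M fraction and 15 in the 0.3 M fraction, and Pax5 was empty on both arrays. Ms4a1 was level at 21 and 21. The median difference of B cell markers was 1.84 over 4 kept genes, of which Blnk passed the filter only through the 0.5 M array. With no filter the median was 0.94 over 6 genes, with 4 above 0 and 2 below. The part of phagocytes and B cells in the NADPH oxidase values was not tested.

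Regulators of NRF2, the factor that induces Prdx1, Txn1, Txnrd1 and other antioxidant genes, had a median of -0.05 over 4 kept genes of 7 listed. Nfe2l2, which encodes NRF2, had 31 at 0.5 M and 38 at 0.3 M (0.01), and Keap1, which holds NRF2 in check, had 184 and 249 (-0.14). Cul3, the ubiquitin ligase scaffold that works with Keap1, was at -0.10. Mafk, a small partner of NRF2 on DNA, had 28 at 0.5 M and 8 at 0.3 M, a difference of 2.11 that was 1.07 with the pseudocount of 16 and rests on a probe near the lowest intensities at 0.3 M. Mafk passed the filter only through the 0.5 M array. The related partners Maff (11 and 18, -0.41) and Mafg (13 and 14, 0.19) were too dim to be kept, and the probe of Bach1 was empty on both arrays.

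NRF2 binds antioxidant response elements, so the start sites of the 10 genes were read for the core TGACNNNGC on both strands. RefSeq windows of GRCm38.p6, from 250 bases before to 50 after each start, were given for 9 of the 10 genes, in 11 windows. The core occurred in 3 of the 11 windows, against 12.4% of all 32851 windows. It lies on the strand opposite to the gene in each of the 3, so capitals mark its reverse complement on the gene's own strand, 5′ to 3′.
Prdx1, chr4:116685451-116685489, plus strand, 133 bases before the start: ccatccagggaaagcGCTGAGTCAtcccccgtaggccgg
Txnrd1, chr10:82859099-82859137, plus strand, 92 bases before 1 of its 3 annotated starts: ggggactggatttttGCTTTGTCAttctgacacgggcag
Sod1, chr16:90220691-90220729, plus strand, 56 bases before the start: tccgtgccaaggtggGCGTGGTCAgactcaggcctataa
The Prdx1 window also holds the AP-1 type motif TGANTCA at 2 places, 237 and 131 bases before the start, and the nearer one overlaps the core. That motif occurs in 7.81% of all windows and in no other of the 11. The 3 genes with the core had differences of 0.39 (Prdx1), 0.21 (Txnrd1) and 0.98 (Sod1), inside the range of the 5 measured genes whose windows lacked it except for Sod1, which lay above Prdx2 (0.84). A match describes these letters only, and says nothing of NRF2 in these cells.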

How the data were processed

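Per the labels' protocols, total RNA of 2 vesicle fractions was amplified by amino allyl labelling and coupled to Cy5, with 1 array for each fraction. The authors deposited probe intensities as whole numbers on a linear scale. Their scanner, background correction, normalization and rule for empty cells are not stated in the labels or the table. Of 23473 probes, the 0.5 M array had values for 16732 and the 0.3 M array for 18969, with 16154 shared. No depth applies to arrays, and their number limits the precision. Of the probes, 20690 carried 1 gene symbol, 0 several and 2783 none. Symbols were updated through a RefSeq table (GRCm38.p6) for 20556 probes through Entrez identifiers and for 9 through accessions. Probe coordinates are left out because the array's build is not stated.

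Intensities were log2-transformed and centred on each array's median over shared probes, and probes of 1 gene were averaged. Genes were kept from the 50th percentile up on at least 1 array. The size rule was 2-fold. All 10 genes are named whatever their values, with up to 4 kept genes of each related list having the largest absolute difference. Genes named beyond that rule (Txn2, Txnrd2, Ccs, Fth1, Ftl1, Hmox1, Sesn2, Pgd, G6pdx, Maff, Mafg, Bach1, Prdx6-ps2 and marker genes) were chosen after their values were seen. Genes and lists were chosen with earlier results of these data known. Alternatives were values as deposited, quantile normalization, loess (lowess of statsmodels 0.14.6, span 0.3), a pseudocount of 16, no filter, a filter at the 75th percentile and the brightest probe of each gene. The scaling steps were tested on simulated data with a constant shift between arrays. That simulation had no trend on brightness such as these arrays show, so it cannot choose between the scalings. Python 3.11.15 was used.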

Additional observations from a re-analysis of the deposited data

How the results depend on the processing

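The median difference of the 8 genes was 0.48 after centring, 0.18 as deposited, 0.29 with quantile normalization, 0.28 with loess and 0.37 with the pseudocount. It was 0.48 with no filter, with the brightest probe and with the stricter filter, which left 4 of the 8. No gene of the 8 passed 2-fold in any of these 7 alternatives. Over all genes, 390 were at least 2-fold higher at 0.5 M and 175 lower after centring. These counts were 121 and 579 as deposited, 250 and 288 with quantile normalization, 235 and 293 with loess, 157 and 98 with the pseudocount, and 701 and 380 with no filter. With the stricter filter they were 285 and 83. The share of higher genes among those past 2-fold thus depends on the scaling. The signs of Prdx1, Prdx3 and Txnrd1 do too, and the cause of the shift between arrays was not tested. No paired analysis was possible because each fraction had 1 array, and no array could be left out for the same reason. Low signal limits Sod1, Txn1, Txnrd1 and Prdx3, which were under 70 on both arrays.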
